A study of Mus musculus with 8 samples.

Results

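Hexokinase 2 and the other enzymes, transporters and regulators of glycolysis and the pentose phosphate pathway were followed in the duodenum of mice that lacked IκBα in the intestinal epithelium. The set had 37 genes, named from the steps of these pathways after the rise of Hk2 in these data was known, and 31 of them had a probe set carrying their symbol among the 22206 on the array. The expression of Gpi1, Pfkfb1, Pfkfb2, Eno1, G6pdx and Tkt was not analysed here, and these genes enter only the promoter counts. The within-pair differences of Hk2 chose the set, so the differences of all its members between genotypes are given as a description, with no test of their own.

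The knockout group was 4 mice with a floxed Nfkbia gene, which encodes IκBα, and a Villin-Cre transgene. Cre, active in villin-expressing epithelial cells, cuts out the Nfkbia promoter together with the first exons. The control group was 4 wild-type littermates, 1 for each knockout, which gave 4 sibling pairs. No mouse was treated. Both mice of pairs 1, 2, 3 and 4 were 8, 11, 8 and 9 weeks old. Pair 1 was male and pair 2 female, while pair 3 had a male knockout with a female sibling and pair 4 the reverse. RNA came from frozen, homogenized duodenum per the series design, and the sample labels name small intestine. No label names a step that isolated epithelium, and fewer cells of a type and less RNA per cell cannot be told apart in such bulk RNA. RNA integrity numbers ran from 7.0 to 8.5 in knockouts and from 7.4 to 8.7 in wild types.

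Expression is given on the log2 scale for each probe set, where a difference of 1 is a doubling. Most of the level of a whole pair had been taken out before deposit. Levels are printed for each mouse, but spread between pairs within a group is not read as biological spread. Comparisons rest on the difference between siblings, given as knockout minus wild type, as mean ± SD over 4 pairs. Nfkbia served as the check of the labels and was lower in all 4 knockouts, with differences of −2.93, −3.26, −1.29 and −3.13 in pairs 1 to 4. All 13 epithelial marker genes lay above the background level of 5.65, set so that 95% of the 1091 probe sets for olfactory receptors lay below it. Their mean was 11.91 to 11.98 in knockouts and 11.90 to 11.96 in wild types. Single markers did differ. In the fit described below 2 of the 13 were called higher, Elf3 (0.542) and Cdx1 (0.438), and 0 lower, beside 3.16% and 2.7% of all probe sets. Others, such as Vil1 (−0.342), were lower in all 4 pairs without a call. Markers of 2 other tissues split the pairs. Adipose markers were higher in the knockouts of pairs 1 and 2, with medians of 3.12 and 2.78 against 0.26 and 0.01 in pairs 3 and 4. Pancreatic acinar markers were lower in the knockouts of pairs 3 and 4, with medians of −4.26 and −3.71 against −0.53 and 0.15 in pairs 1 and 2.

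Glycolysis splits glucose into pyruvate and yields ATP without oxygen. Transporters bring glucose into the cell, hexokinases trap it as glucose 6-phosphate, and phosphofructokinase commits it to breakdown. Glucose 6-phosphate can instead enter the pentose phosphate pathway, which yields NADPH and ribose phosphate. In the small intestine most dietary glucose crosses the enterocyte unchanged, while the epithelium draws much of its own fuel from glutamine. Hexokinase 2 is known as an inducible isoform that rises with growth signals, hypoxia and inflammation.

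Of the 31 measured members, 4 were called higher and 0 lower in knockouts (limma with the sibling pair as a block, Benjamini-Hochberg adjusted over all probe sets, threshold 0.05). At unadjusted p under 0.05 the counts were 13 and 2, beside 6098 of the 22206 probe sets in either direction. Over all 22206 probe sets 3.16% were called higher and 2.7% lower, and this contrast chose the set, so nothing is read from the count. The 4 were Hk2, the glucose transporter gene Slc2a1, the phosphofructokinase gene Pfkp and Pfkfb3, whose product makes the activator of phosphofructokinase. They act at glucose entry, at its trapping and at the committing step. Of the 18 measured members of later steps, from aldolase to lactate export and pyruvate dehydrogenase kinase, 0 were called in this fit, and whether early and later steps differ was not tested. With trend and robust variance, which called 5.11% of all probe sets higher and 3.88% lower, the later-step genes Aldoa, Gapdh, Pkm and Ldha were called higher and Eno3 lower. Without the pair block, with 16.3% and 18.1%, those 5 were called the same way, Aldoc, Tpi1 and Pgam1 were also higher and Pdk2 lower. Centring on housekeeping genes, with 2.26% and 19.8%, called Aldoc higher and Eno3, Pdk2 and Pdk3 lower. The median difference was 0.21 over the members and −0.015 over all probe sets. It was 0.185 over 7 housekeeping genes. Of the members 30 lay above the background level. Over the 15012 probe sets above that level the median was 0.015, and the fit on these called 5.46% higher and 3.69% lower. In pairs 1 to 4 the members' median was 0.24, 0.29, 0.11 and 0.17. With pair 1, 2 or 4 left out only Hk2 was called among the members, and with pair 3 left out Hk2, Pfkfb3 and Aldoc were. Of the whole array, 0.612%, 0.401%, 0.986% and 0.644% were called higher without pair 1, 2, 3 and 4. Knockouts were higher in 19, 20, 19 and 21 of the 31 members in pairs 1 to 4, beside 47.4%, 47%, 47.9% and 47.8% of all probe sets. The difference was above 0 in all 4 pairs in 13 members and below 0 in 4, beside 16.5% and 17.9% of all probe sets. With pair levels nearly equal, the same members had groups that did not overlap (15.9% and 17.2% of all probe sets), so below a lack of overlap adds little to the signs of the 4 differences.

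**Figure D1:**
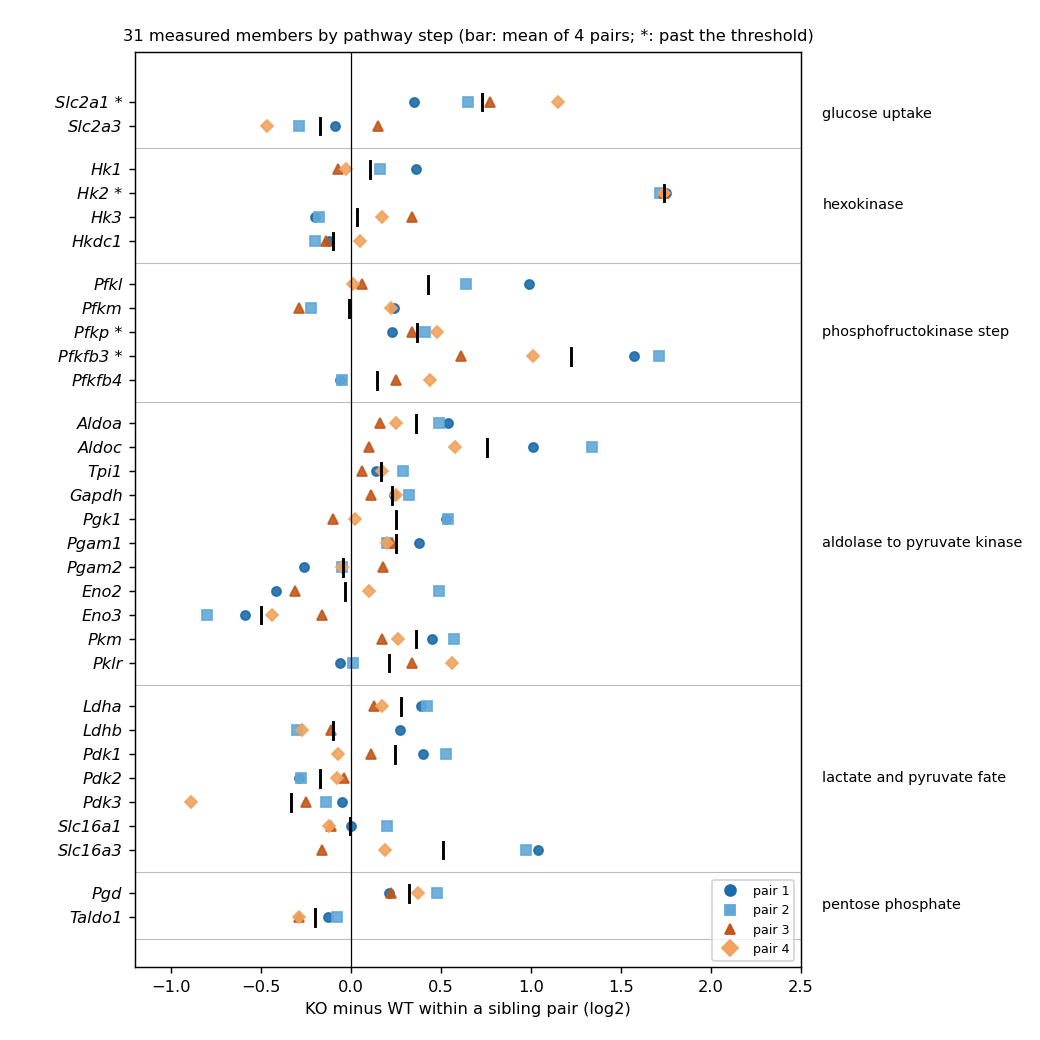
Knockout minus wild type within each sibling pair (log2, horizontal axis) for the 31 measured members, grouped by pathway step. Points are the 4 pairs, the bar is their mean and an asterisk marks the 4 members past the threshold. The points of Hk2 fall on each other near 1.74, while the other members of its family lie around 0.

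The hexokinases phosphorylate glucose, and 1 of their 4 genes was called. Hk2 encodes an isoform known for binding to mitochondria and for its abundance in muscle and tumours. In pairs 1 to 4 it read 9.76, 9.74, 9.57 and 9.57 in knockouts and 8.01, 8.02, 7.83 and 7.83 in wild types. Every knockout lay far above every wild type, with no overlap. The differences were 1.75, 1.72, 1.74 and 1.74, a mean of 1.74 ± 0.0126 (SD, n = 4 pairs), or 3.33-fold. Hk2 ranked 36 among all probe sets by the size of its rise. Of the 266 probe sets that differed by at least 1 in size, 0 had a smaller SD between pairs, and the median SD over all probe sets was 0.179. These values are those for which the gene was chosen.

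Hkdc1 encodes a hexokinase-like enzyme that is found in intestinal epithelium, and it lies next to Hk1 on chromosome 10 in the RefSeq table. It read 10.36, 10.33, 10.39 and 10.49 in knockouts and 10.48, 10.53, 10.53 and 10.44 in wild types. The groups overlapped, and the difference was −0.10 ± 0.107. Hk1, the isoform found in most tissues, read 7.59, 7.49, 7.29 and 7.31 against 7.23, 7.33, 7.36 and 7.34. Its knockouts were higher in pairs 1 and 2 and lower in pairs 3 and 4, and the mean was 0.105 ± 0.197. Hk3, which is mostly a gene of myeloid blood cells, read 6.95, 6.96, 7.21 and 7.13 against 7.15, 7.14, 6.87 and 6.96. It ran the other way, lower in the knockouts of pairs 1 and 2 and higher in those of pairs 3 and 4, with a mean of 0.033 ± 0.266. Of 8 myeloid markers measured, 0 were called in either direction, and their mean ran from 6.77 to 7.03 in knockouts and from 6.83 to 7.04 in wild types. The rise of Hk2 was thus not shared by a called change of another hexokinase. A missed threshold does not show that these 3 genes were equal between genotypes. Centred on housekeeping genes, Hk1 was −0.05, Hk3 −0.12 and Hkdc1 −0.26, and 0 of the 3 were called.

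**Figure D2:**
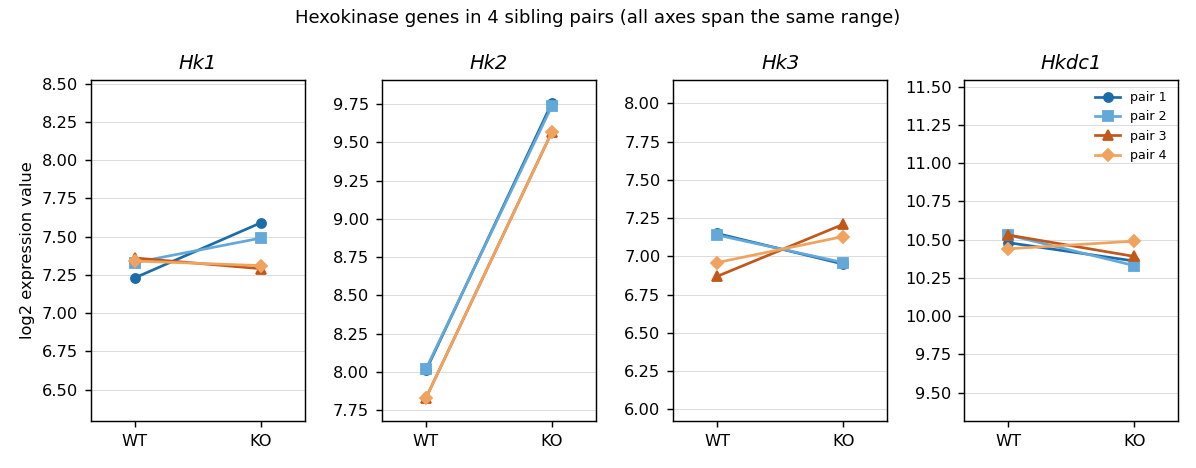
Log2 expression values of the 4 hexokinase genes in wild-type (WT) and knockout (KO) mice, with a line joining the siblings of each pair. All vertical axes span the same range, so slopes can be compared. Only the lines of Hk2 are steep, with knockouts at 9.57 to 9.76 and wild types at 7.83 to 8.02.

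Glucose uptake was represented by the transporters GLUT1 (Slc2a1) and GLUT3 (Slc2a3). Slc2a1 read 9.37, 9.53, 9.57 and 9.80 in knockouts and 9.02, 8.88, 8.80 and 8.65 in wild types. All knockouts were above all wild types, by 0.35, 0.65, 0.77 and 1.15 in pairs 1 to 4. The mean of 0.73 ± 0.331 is 1.66-fold. The difference was larger in both pairs with the acinar difference, and the part of the acinar cells in it was not tested. Slc2a3, a transporter of neurons and blood cells, averaged 5.26 in knockouts and 5.43 in wild types, below the background level, and differed by −0.175 ± 0.267. It was the 1 member of 31 not above background.

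At the committing step Pfkfb3 had the second largest difference of the set. It encodes an inducible enzyme that makes the fructose bisphosphate which switches phosphofructokinase on. The knockouts read 10.73, 10.80, 10.26 and 10.51 and the wild types 9.16, 9.09, 9.65 and 9.50. The groups did not overlap, and pair 3 had the smallest gap. Its rise of 1.23 ± 0.509, or 2.34-fold, was 1.57 and 1.71 in pairs 1 and 2 and 0.61 and 1.01 in pairs 3 and 4. The larger values were those of the pairs with the adipose difference, whose part in it was not tested. Pair 3 also had the smallest fall of Nfkbia (−1.29), and the part of that in the Pfkfb3 values was not tested. Pfkfb4, which encodes a related enzyme, was flat in pairs 1 and 2 and higher in pairs 3 and 4 (0.145 ± 0.244).

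Phosphofructokinase itself has liver, muscle and platelet type subunits. The platelet type gene Pfkp read 11.77, 11.86, 11.82 and 11.91 in knockouts and 11.54, 11.45, 11.48 and 11.43 in wild types. The gap was small and steady, 0.365 ± 0.107 or 1.29-fold. Its call was lost in 11 of 15 other settings, among them the centring on housekeeping genes, where the difference was 0.21. The liver type gene Pfkl read 8.75, 8.59, 8.30 and 8.29 in knockouts and 7.76, 7.95, 8.24 and 8.28 in wild types. Almost all of its difference (0.425 ± 0.473) came from pairs 1 and 2, with 0.99 and 0.64 against 0.06 and 0.01. The muscle type gene Pfkm was higher in 2 knockouts and lower in 2 (−0.013 ± 0.282).

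**Figure D3:**
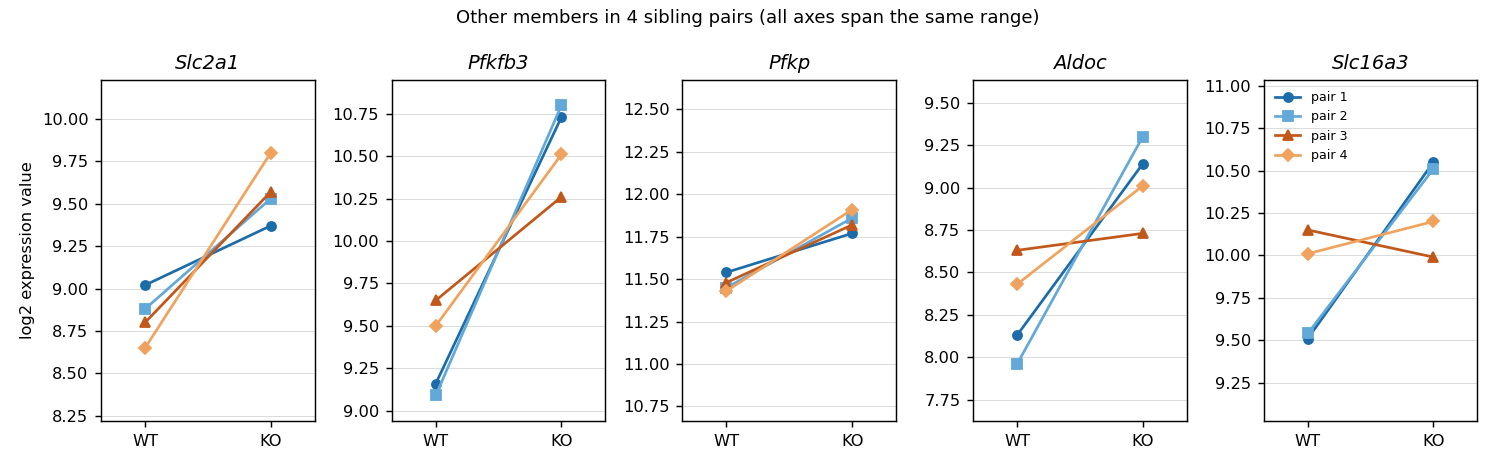
Log2 expression values of Slc2a1, Pfkfb3, Pfkp, Aldoc and Slc16a3 in wild-type (WT) and knockout (KO) mice, with a line joining the siblings of each pair and the same span on every vertical axis. All 4 lines rise for the first 4 genes. For Slc16a3 the lines of pairs 1 and 2 rise by 1.04 and 0.97, while those of pairs 3 and 4 change by −0.16 and 0.19.

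The promoters of the 4 called members are shown because these genes were called higher, and those of Hk1, Hk3 and Hkdc1 because these hexokinase genes were not. Each is the 250 bases before an annotated start site, from RefSeq (GRCm38.p6), written along the gene's strand. Capitals mark ACGTG or GCGTG on either strand, which is the core of the element bound by hypoxia-inducible factors. Where CACGTG, the E-box bound by Myc, overlaps it, the 6 bases are in capitals. Pfkfb3 and Hk1 each have 2 annotated start sites with a window.
Hk2, chr6:82774455-82774704, minus strand: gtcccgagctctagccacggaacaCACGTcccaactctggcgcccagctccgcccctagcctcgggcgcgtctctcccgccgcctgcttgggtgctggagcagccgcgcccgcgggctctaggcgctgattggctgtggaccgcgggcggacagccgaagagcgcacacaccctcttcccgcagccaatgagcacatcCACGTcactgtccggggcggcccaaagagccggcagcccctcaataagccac
Slc2a1, chr4:119108495-119108744, plus strand: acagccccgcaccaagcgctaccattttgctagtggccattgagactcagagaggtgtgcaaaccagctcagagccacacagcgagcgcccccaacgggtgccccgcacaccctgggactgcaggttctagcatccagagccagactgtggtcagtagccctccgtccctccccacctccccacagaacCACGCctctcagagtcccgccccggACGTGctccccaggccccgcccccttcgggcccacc
Pfkfb3, outer start, chr2:11553930-11554179, minus strand: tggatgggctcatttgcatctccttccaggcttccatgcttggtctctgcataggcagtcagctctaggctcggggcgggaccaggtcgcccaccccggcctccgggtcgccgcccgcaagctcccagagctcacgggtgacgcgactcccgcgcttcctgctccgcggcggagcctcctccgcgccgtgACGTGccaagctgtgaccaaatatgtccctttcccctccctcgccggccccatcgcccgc
Pfkfb3, inner start, chr2:11502091-11502340, minus strand: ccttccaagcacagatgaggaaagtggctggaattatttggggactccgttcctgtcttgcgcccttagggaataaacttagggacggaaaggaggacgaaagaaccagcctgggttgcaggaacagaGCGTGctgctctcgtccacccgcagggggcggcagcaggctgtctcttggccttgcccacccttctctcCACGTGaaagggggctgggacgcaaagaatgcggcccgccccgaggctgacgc
Pfkp, chr13:6648772-6649021, minus strand: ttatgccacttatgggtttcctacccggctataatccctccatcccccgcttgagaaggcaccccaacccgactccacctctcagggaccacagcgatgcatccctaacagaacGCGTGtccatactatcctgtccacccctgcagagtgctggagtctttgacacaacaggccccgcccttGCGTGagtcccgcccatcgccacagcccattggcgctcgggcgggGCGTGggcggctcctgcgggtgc
Hk1, window with matches, chr10:62340422-62340671, minus strand: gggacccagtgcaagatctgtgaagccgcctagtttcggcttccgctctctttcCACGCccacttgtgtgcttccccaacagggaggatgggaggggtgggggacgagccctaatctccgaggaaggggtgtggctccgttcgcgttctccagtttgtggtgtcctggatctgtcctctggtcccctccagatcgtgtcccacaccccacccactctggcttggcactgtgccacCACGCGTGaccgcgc
Hk1, window without a match, chr10:62379909-62380158, minus strand: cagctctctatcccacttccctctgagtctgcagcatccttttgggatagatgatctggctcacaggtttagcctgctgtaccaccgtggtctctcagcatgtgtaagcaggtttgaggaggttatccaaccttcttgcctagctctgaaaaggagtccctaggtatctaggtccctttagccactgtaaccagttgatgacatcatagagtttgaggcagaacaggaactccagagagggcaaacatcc
Hk3, chr13:55021386-55021635, minus strand: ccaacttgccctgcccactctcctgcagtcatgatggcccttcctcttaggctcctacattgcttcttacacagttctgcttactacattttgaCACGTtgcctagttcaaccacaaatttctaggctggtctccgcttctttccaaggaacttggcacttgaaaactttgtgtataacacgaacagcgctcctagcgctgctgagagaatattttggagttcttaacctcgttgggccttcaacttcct
Hkdc1, chr10:62422458-62422707, minus strand: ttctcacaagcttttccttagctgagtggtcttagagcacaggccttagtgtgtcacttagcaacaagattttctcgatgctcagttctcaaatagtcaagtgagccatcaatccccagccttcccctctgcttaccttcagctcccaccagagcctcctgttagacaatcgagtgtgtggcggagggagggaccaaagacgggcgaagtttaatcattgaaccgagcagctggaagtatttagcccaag

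The Hk2 window held ACGTG at 2 places, which begin 226 and 52 bases before the start site, and 69.6% of its bases were G or C. Slc2a1, both Pfkfb3 windows and Pfkp held ACGTG or GCGTG as well. So did hexokinase genes that were not called: 1 Hk1 window held GCGTG at 3 places and the Hk3 window held ACGTG at 1. The other Hk1 window and that of Hkdc1 held neither. ACGTG alone was thus in the windows of Hk2 and Hk3 and not in those of Hk1 and Hkdc1. The part of these letters in the Hk2 values was not tested. Over all 57 windows of 36 members, ACGTG was present in 33.3% and GCGTG in 49.1%. These windows include those of members without a probe set, Pfkfb2 among them, and some windows of the same gene overlap. Over all 32851 windows of the same length the shares were 16.6% and 28.2%. The members' windows were also richer in G and C, with a median of 58.4% against 52.4%. CACGTG was in 10.5% of the members' windows and 6.02% of all. The consensus of NF-κB was matched in 7.02% of the members' windows and 7.25% of all. Its 4 members were Pfkfb2, Pklr, Pfkm and Pgk1, and 0 of the 4 called genes had it in these windows. A match is a string of letters and not a shown binding site, and its absence here says nothing of the factor's binding elsewhere.

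The enzymes from aldolase to pyruvate kinase carry the split sugar to pyruvate. Of 11 measured members 0 were called, 6 were higher in all 4 pairs and 1 was lower in all 4. Over all probe sets 16.5% were higher and 17.9% lower in all 4 pairs. Aldolase A (Aldoa, 0.36 ± 0.184), pyruvate kinase M (Pkm, 0.36 ± 0.181), phosphoglycerate mutase 1 (Pgam1, 0.252 ± 0.0862), Gapdh (0.23 ± 0.0876) and triosephosphate isomerase (Tpi1, 0.165 ± 0.0954) had small gaps with the same sign in every pair. Gapdh, often used as a reference gene, read 13.39, 13.43, 13.35 and 13.43 in knockouts and 13.15, 13.11, 13.24 and 13.18 in wild types. The groups did not overlap, although the gap is 1.17-fold. The 7 housekeeping genes had a median difference of 0.185, and 1 of them was called higher. Centring on those genes moved the median of all probe sets by −0.155 and left Aldoa at 0.205, Pkm at 0.207, Gapdh at 0.075 and Tpi1 at 0.01.

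Aldolase C (Aldoc), an isoform best known from brain, had the largest difference among members that were not called. It read 9.14, 9.30, 8.73 and 9.01 in knockouts and 8.13, 7.96, 8.63 and 8.43 in wild types. All knockouts were above all wild types, but pair 3 had a gap of only 0.10 beside 1.01, 1.34 and 0.58 (mean 0.758 ± 0.538). Phosphoglycerate kinase 1 (Pgk1) was higher by 0.53 and 0.54 in pairs 1 and 2 and differed by −0.10 and 0.02 in pairs 3 and 4. Pyruvate kinase L/R (Pklr), the isoform of liver, red cells and gut, had the reverse split, with −0.06, 0.01, 0.34 and 0.56.

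Enolase 3 (Eno3), the muscle type enolase, was the member with the largest difference below 0. It read 7.05, 6.93, 7.25 and 7.11 in knockouts and 7.64, 7.73, 7.41 and 7.55 in wild types. The groups did not overlap, and the gap of −0.498 ± 0.269 was largest in pairs 1 and 2. It was called lower in 5 of 15 other settings. Beside trend variance and the fit without a block, these were the filter on dim probe sets (3.69% of those tested called lower), centring on epithelial genes (3.54%) and centring on housekeeping genes. The last called 2.26% of all probe sets higher and 19.8% lower, Pdk2, Pdk3 and Taldo1 among the lower. Of 10 smooth muscle markers 0 were called, and their medians in pairs 1 to 4 were 0.26, 0.06, −0.48 and −0.62. Of 8 skeletal muscle markers 0 were called higher and 1 lower, 4 lay above background, and their mean ran from 5.83 to 5.91 in knockouts and from 5.92 to 5.99 in wild types. Their part in the Eno3 difference was not tested. The muscle mutase gene Pgam2 (−0.045 ± 0.18) and the neuronal enolase gene Eno2 (−0.035 ± 0.415) had mixed signs.

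Pyruvate can be reduced to lactate and exported, or be oxidized inside mitochondria by pyruvate dehydrogenase, which the Pdk kinases switch off. Of 7 measured members of this branch 0 were called. Lactate dehydrogenase A (Ldha) read 12.60, 12.61, 12.49 and 12.53 in knockouts and 12.21, 12.19, 12.36 and 12.36 in wild types. All knockouts were above all wild types, by 0.278 ± 0.149, while its partner subunit Ldhb differed by −0.10 ± 0.262 with overlapping groups. The lactate exporter MCT4 (Slc16a3) read 10.55, 10.51, 9.99 and 10.20 in knockouts and 9.51, 9.54, 10.15 and 10.01 in wild types. It was higher by 1.04 and 0.97 in pairs 1 and 2, with −0.16 and 0.19 in pairs 3 and 4, so its groups overlapped. The related transporter MCT1 (Slc16a1) differed by −0.007 ± 0.149. Pdk2 (−0.173 ± 0.131) and Pdk3 (−0.332 ± 0.381) were lower in all 4 pairs. Pdk1, a kinase induced by hypoxia, had a mean of 0.242 ± 0.272, higher in 3 pairs and lower in 1.

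The pentose phosphate pathway had 2 measured members. Phosphogluconate dehydrogenase (Pgd), which makes NADPH in the oxidative branch, read 11.03, 11.17, 11.05 and 11.15 in knockouts and 10.82, 10.69, 10.83 and 10.78 in wild types. Transaldolase (Taldo1), of the non-oxidative branch, read 10.37, 10.39, 10.28 and 10.28 against 10.50, 10.47, 10.57 and 10.57. Neither gene's groups overlapped, and their differences had opposite signs. Pgd had a difference of 0.32 ± 0.129 and Taldo1 one of −0.198 ± 0.109. Neither was called, and centring on housekeeping genes gave 0.165 and −0.353, with Taldo1 called lower. With trend and robust variance, which called 5.11% of all probe sets higher, Pgd was called higher. Without the pair block, with 16.3% higher and 18.1% lower, Pgd was called higher and Taldo1 lower.

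The members were not equally different in all pairs. In 13 of 31 both differences of pairs 1 and 2 were above both of pairs 3 and 4, and in 6 both were below. Over all probe sets the shares were 21.3% and 22.5%. The widest splits were those of Slc16a3 (means of 1.01 in pairs 1 and 2 and 0.015 in pairs 3 and 4), Aldoc (1.18 and 0.34), Pfkfb3 (1.64 and 0.81) and Pfkl (0.815 and 0.035). Hk2 had 1.74 in both. Pairs 1 and 2 were the pairs with the adipose difference, where the mean of 8 adipose markers was 8.96 and 8.84 in knockouts and 5.87 and 6.05 in wild types. In pairs 3 and 4 it was 7.40 and 7.22 against 7.18 and 7.28. The part of adipose RNA in the splits was not tested. Fits on pairs 1 and 2 alone and on pairs 3 and 4 alone called 0 members, and 0% and 0.117% of all probe sets. At unadjusted p under 0.05 the members counted were 17 and 8. Of all 22206 probe sets, 5278 and 4144 were under it. The members' median difference in these fits was 0.26 and 0.065.

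**Figure D4:**
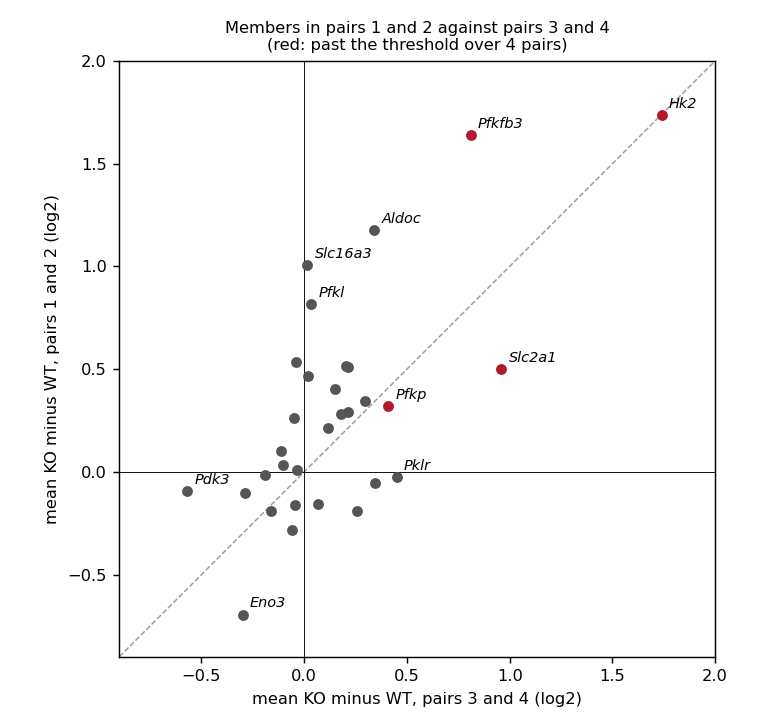
Mean knockout minus wild type (log2) of each of the 31 members in pairs 3 and 4 (horizontal axis) and in pairs 1 and 2 (vertical axis). The dashed line marks equal differences, and red points are the 4 members past the threshold over all pairs. Hk2 lies on the line at 1.74, Pfkfb3, Aldoc, Slc16a3 and Pfkl lie above it, and Slc2a1 lies below it.

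Genes of adjoining steps were taken from 10 lists that name enzymes and regulators by function. Of 139 measured, 12 rose and 7 fell (13.7%), beside 5.86% of all probe sets, and their median difference was 0.08. The fit on only the 15012 probe sets above the background level called 9.15% of them. The lists were chosen with earlier results of these data known, so nothing is read from the count of their genes. H6pd and Pgls, both of the oxidative pentose phosphate pathway, had among the steadiest rises of these genes. H6pd encodes the hexose 6-phosphate dehydrogenase of the endoplasmic reticulum. It read 8.58, 8.52, 8.55 and 8.64 in knockouts and 7.63, 7.75, 7.77 and 7.69 in wild types, a rise of 0.862 ± 0.101 (limma adjusted p = 0.00514). The lactonase gene Pgls read 8.46, 8.30, 8.42 and 8.37 against 7.59, 7.72, 7.55 and 7.68, a rise of 0.752 ± 0.143 (limma adjusted p = 0.0106). Neither gene's groups overlapped. Both kept their call with any 1 pair left out (adjusted p from 0.0171 to 0.0478). The other 8 of the 10 pentose phosphate and ribose genes were not called.

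Of 20 genes of the hypoxia response outside glycolysis, 2 rose and 1 fell, with a median of 0.068. Ero1a, an oxidase that drives disulfide formation, rose by 0.985 ± 0.228 (limma adjusted p = 0.00926). The peptide hormone gene Adm rose by 0.90 ± 0.221 (adjusted p = 0.0108), and Ndrg1, which is induced by hypoxia in many cells, fell by 0.792 (SD 0.289, adjusted p = 0.0216). So these 3 genes did not share a direction. Of 14 genes in the list of Myc and its growth targets 1 rose, the Myc relative Mycl (0.522 ± 0.104, adjusted p = 0.0203). Of 9 proliferation markers 4 were called higher and 0 lower, with medians of 0.45, 0.27, 0.57 and 0.24 in pairs 1 to 4. Their part in the differences of the members was not tested.

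Of 17 other sugar and lactate transport genes 0 rose and 3 fell. Slc5a4b read 8.01, 7.99, 8.68 and 7.58 in knockouts and 10.09, 10.07, 9.66 and 10.43 in wild types. It fell by 1.998 (SD 0.769, adjusted p = 0.0169), and Slc5a4a, its relative in the sodium-glucose transporter family, fell by 1.47 (SD 0.676, adjusted p = 0.0258). The hexose and urate transporter gene Slc2a9 fell by 0.513 (SD 0.169, adjusted p = 0.0285). Among 10 genes of gluconeogenesis and fructose breakdown, ketohexokinase (Khk), which traps fructose, fell by 0.435 (SD 0.0493, adjusted p = 0.0235). Pyruvate carboxylase (Pcx), which makes oxaloacetate from pyruvate, rose by 0.798 ± 0.342 (adjusted p = 0.0271). Beside these falls, 0 of 11 enterocyte markers rose and 2 fell, and their mean ran from 11.83 to 12.29 in knockouts and from 12.46 to 12.97 in wild types. Their part in these falls was not tested.

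Each of the remaining lists but that of the citric acid cycle had 2 called genes. Of 14 glycogen and hexosamine genes 2 rose, glycogen synthase 1 (Gys1, 0.54 ± 0.159, adjusted p = 0.0238) and Ugp2, which makes the sugar donor UDP-glucose (0.44 ± 0.0963, adjusted p = 0.0273). Of 5 genes of serine synthesis 2 rose, Phgdh, which draws serine carbon from glycolysis (0.495 ± 0.228, adjusted p = 0.0437), and Shmt2 (0.60 ± 0.218, adjusted p = 0.0267). Of 11 other NADPH sources the malic enzyme gene Me1 rose (1.08 ± 0.645, adjusted p = 0.046) and its mitochondrial relative Me3 fell by 0.632 (SD 0.309, adjusted p = 0.0392). The rise of Me1 was 1.65 and 1.62 in pairs 1 and 2 and 0.56 and 0.48 in pairs 3 and 4, the split seen for the adipose markers, whose part in it was not tested. Of 14 other glycolysis genes Ldhd, a dehydrogenase of D-lactate, rose (1.14 ± 0.599, adjusted p = 0.0352), and Pgm2 fell by 0.36 (SD 0.121, adjusted p = 0.0489).

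Pyruvate dehydrogenase and the citric acid cycle had 0 of 24 genes called, with 2 examples that had the largest differences. Pdk4, a kinase that switches pyruvate dehydrogenase off during fasting, differed by −0.31, −0.43, −1.83 and −2.37 in pairs 1 to 4 (adjusted p = 0.0857). The larger gaps were in the pairs with the acinar difference, whose part was not tested. Dlat, a subunit of pyruvate dehydrogenase, differed by 0.54 ± 0.318 (adjusted p = 0.0574). With pair 1, 2, 3 or 4 left out, limma called 5, 3, 5 and 4 of the 139 adjoining genes higher and 0, 0, 4 and 2 lower. Of all probe sets 0.306%, 0.252%, 1.08% and 0.432% were lower in these fits. At unadjusted p under 0.05 the higher counts were 28, 21, 25 and 29 and the lower counts 14, 16, 17 and 16. Of all 22206 probe sets, 4836, 4397, 4909 and 5149 were under it in either direction. H6pd, Pgls and Ero1a were called in each of these 4 fits, and 11 of the 21 genes named from the lists in 0 of them.

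**Figure D5:**
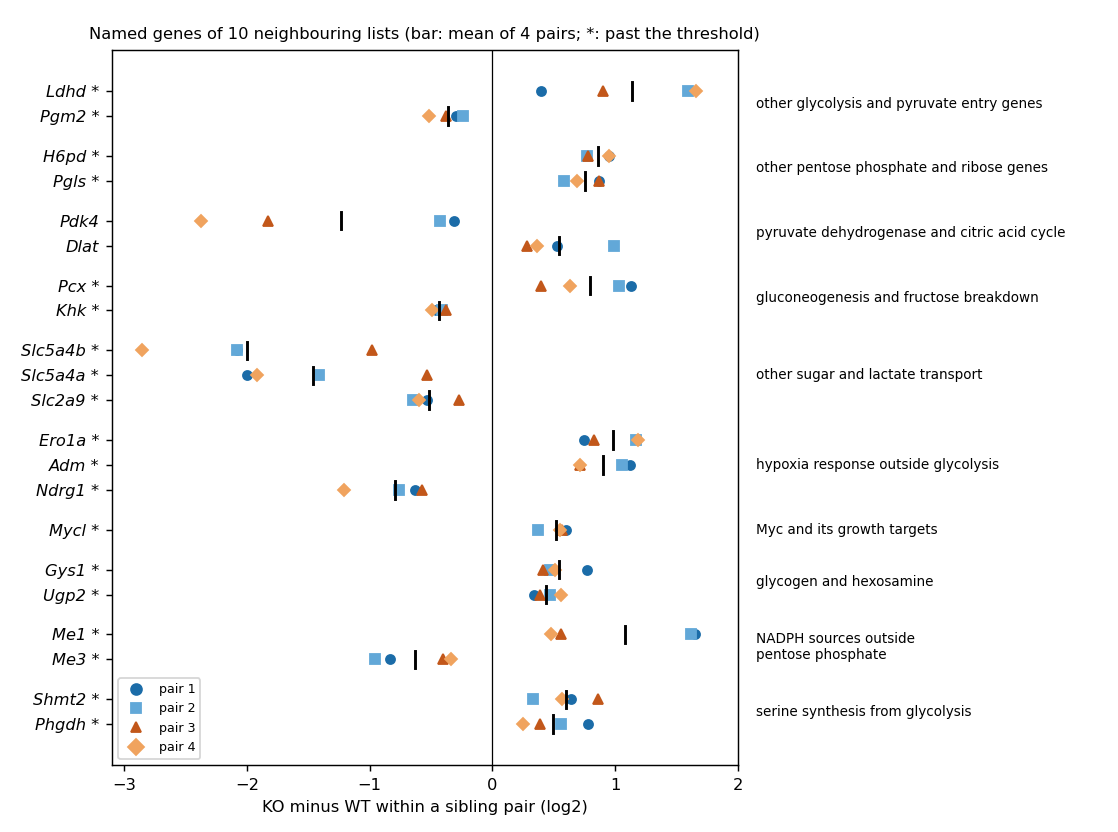
Knockout minus wild type within each sibling pair (log2, horizontal axis) for the 21 genes named from the 10 adjoining lists. Points are the 4 pairs, the bar is their mean and an asterisk marks a limma adjusted p under the threshold of 0.05. H6pd, Pgls and Khk have closely grouped points, while Pdk4, Slc5a4b and Me1 spread widely between pairs.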

How the data were processed

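The deposited file holds log2 expression values per probe set of Clariom S mouse arrays, 1 array per mouse. The authors made them with RMA in Transcriptome Analysis Console 4.0, per the submitters' processing notes, and no further setting is stated. Within a probe set the 4 pair means barely differed (median SD 0.0175), through a step no source used here records. Across probe sets, deviations from the genotype's mean correlated at −0.913 to −0.87 between siblings. Pairs come from the labels, which number sibling pairs. The fit was lmFit and eBayes at default settings, from limma 3.58.1 under R 4.3.3, on all 22206 probe sets. Its terms were pair and genotype, and its p-values were Benjamini-Hochberg adjusted. It left 3 residual degrees of freedom and 6.63 after moderation. Differences correlated more between pairs 1 and 2 (0.682) and pairs 3 and 4 (0.673) than otherwise (0.346 to 0.42), which the p-values do not allow for. The design was also run on simulated data, but with independent pair differences, so that run does not bear on this correlation. P-values are two-sided. Mice are the replicates, and the number of arrays limits the precision.

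Of the probe sets, 19572 had 1 gene symbol in the platform table, 0 had several, and 2634 carry no name here. The RefSeq table of GRCm38.p6 held every one of these gene IDs and also supplied promoters. The listed name Ero1l was read as its current symbol Ero1a. Where a probe set lies on its gene, and whether near-identical copies share its probes, was not analysed. The members and lists were chosen with earlier results of these data known. Values in every mouse are given for the hexokinases, called members and the 4 uncalled members with the largest differences, and for others where a comparison turned on them, chosen after their values were seen. Up to 4 called genes of each adjoining list are named, or the 2 with the largest change. The p-value of the fit is the only test between genotypes. Promoter letters were searched on both strands.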

Additional observations from a re-analysis of the deposited data

Results flagged for a closer look

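Among the 4 knockout values of Pgam1, pair 2 stood apart at 10.08, while the other knockouts were all at 10.15. The gap is 0.07 on the log2 scale. Each group of 4 values was compared with Dixon's critical value, over 104 groups, and 1 was past it, while chance gives about 1 in 20.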

How the results depend on the processing

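The fit without the pair block treats siblings as independent and called 13 members higher and 3 lower, 42 and 24 of the adjoining genes and 7648 probe sets. It is not a stronger result, as most of the level of a pair had been taken out. Leaving out 1 pair gave 1 to 3 members higher, 0 to 0 lower, 3 to 5 adjoining genes higher, 0 to 4 lower and 145 to 459 probe sets. Pairs 3 and 4 alone gave 0 members higher, 0 and 0 adjoining genes, 26 probe sets and a members' median of 0.065. Pairs 1 and 2 alone gave 0 members higher, 0 and 0 adjoining genes and 0 probe sets (limma, 5278 at unadjusted p under 0.05). With sex beside the replicate block 2 members were higher, 4 adjoining genes higher, 3 lower and 464 probe sets called. With the RNA integrity number the counts were 1, 5, 2 and 364. The filter on dim probe sets and centring on epithelial genes each gave 1 member lower (Eno3), of 1373 and 1459 probe sets called. Centring on housekeeping genes gave 4 members higher and 4 lower, a members' median of 0.057, 23 adjoining genes lower and 4906 probe sets. The share of higher calls went from 54.0% to 10.2%. Trend and robust variance gave 9 members higher, 1 lower and 1997 probe sets. Quantile normalization and averaging probe sets moved no count by over 1.5 times. Of 15 other settings Hk2 was called in 13, Pfkfb3 in 9, Slc2a1 in 7 and Pfkp in 4, and each had the same sign in 15. The causes of these changes were not tested. The fits that leave pairs out differ both in the number of mice and in which pairs they hold.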
